A study of Mus musculus with 12 samples.

Results

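Knock-down of Dnmt3a in 3T3-L1 adipocytes was compared with a GFP control vector, by RNA-seq, over 6 of the 12 libraries of the series: 3 of cells that received a short hairpin RNA against Dnmt3a (shDnmt3a) and 3 of cells that received GFP in the expression vector pCDH. The 6 were chosen by their labels alone. 3T3-L1 is a mouse embryonic fibroblast line that is turned into fat-storing adipocytes in culture with dexamethasone, IBMX and insulin, and all groups were differentiated in this way. According to the labels, lentivirus was put on the mature adipocytes on day 8 for 2 days and cells were harvested 4 days after transduction; the study's methods give a shorter contact with the virus. A scrambled hairpin (shScr, 3 libraries) was the matched control of the knock-down, and its levels are set beside those of the GFP libraries wherever they help to place a gene. The question was which genes differ when no hairpin of any kind is in the control. GFP cells carried a different vector and a foreign protein in place of a hairpin, and the labels name no batch or processing date, so that the hairpin, its target, the vector and any batch cannot be told apart in this comparison. The sources used here do not give which of the study's hairpins against Dnmt3a was sequenced. The series is described as biological triplicates, but separate cultures within a group are not stated, so the p-values measure no more than how these libraries vary, and that variation may be technical.

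Dnmt3a is a de novo DNA methyltransferase: it adds methyl groups to cytosines, mostly where a cytosine is followed by a guanine (a CpG), and methylation of a promoter is usually tied to silence of its gene. Maintenance of the mark at replication falls to Dnmt1 and its partner Uhrf1, but mature adipocytes have largely left the cell cycle. A lentiviral hairpin adds further biology of its own, since double-stranded RNA can be sensed by the interferon system, which is why a comparison of knock-down cells depends on the control that is chosen.

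The study lists 2 hairpins against Dnmt3a, and their targets are shown because they define the perturbation. Both match the mouse genome build NCBIM37 on the plus strand of chromosome 12 inside exons of Dnmt3a (chr12:3806007-3914443), annotated as coding sequence in some transcripts and as untranslated in others, at chr12:3907714-3907734 and at chr12:3900011-3900031. The capitals mark the whole target.
shDnmt3a #1: CGCTCCGCTGAAGGAATATTT
shDnmt3a #2: CCAGATGTTCTTTGCCAATAA

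Dnmt3a itself was at 93.2, 90.7 and 96.6 CPM (read counts scaled by library size) in GFP cells and 41, 39.3 and 39.4 CPM in knock-down cells. The groups lay far apart, in the direction of the label. The log2 fold change was −1.23 (standard error 0.042, Benjamini-Hochberg adjusted p = 3.94e-18 by the quasi-likelihood test of edgeR, the test of every adjusted p given here). In shScr cells Dnmt3a stood at 81.2, 86.3 and 78.5 CPM, below every GFP library, with a log2 difference of −0.18 from GFP (adjusted p = 0.00235, same test) and of −1.04 for shDnmt3a against shScr. Knock-down therefore measured slightly larger against GFP than against the scrambled hairpin.

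Total counts ran from 34796944 to 47341091 in the GFP libraries and from 35013931 to 40973267 in the shDnmt3a libraries, and Scd1, a fatty acid desaturase, was the most abundant feature in all of them. Pairs of libraries within these 2 groups differed by more than sampling noise, since their chi-square divided by its degrees of freedom lay between 2.52 and 8.01. Markers of adipocytes were abundant in both groups, whereas the macrophage markers Emr1, Laptm5 and Tyrobp and the muscle regulator Myod1 were at 0 in all 6 libraries. Summed over each list, macrophage and leukocyte markers gave 26.9 to 28.1 CPM in GFP and 38 to 39 CPM in shDnmt3a, endothelial markers 4.92 to 5.72 and 5.83 to 6.32 CPM, skeletal muscle markers 79.5 to 83.5 and 110 to 113 CPM, and preadipocyte and fibroblast markers 2060 to 2090 and 1650 to 1660 CPM. Such sums follow their abundant members. Desmin (Des) averaged 74 CPM in GFP and 106 CPM in shDnmt3a, and vimentin (Vim) 1190 and 717 CPM. The fibroblast marker Pdgfra went the other way from Vim, at 230 and 344 CPM. Lars2, a mitochondrial leucyl-tRNA synthetase whose locus collects reads of ribosomal RNA, was at 25.2, 101 and 323 CPM in the GFP libraries, against 274, 372 and 380 CPM in shDnmt3a, and its call (log2 fold change 1.21, adjusted p = 0.0131) was lost with DESeq2 and, at 0.99, without GFP replicate 2. The part that such markers had in the results was not tested. These are bulk RNA samples, in which fewer cells of a type and less RNA per cell cannot be told apart.

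In all, 6878 of 14273 genes tested (48.2%) were called between shDnmt3a and GFP at an adjusted p under 0.05, 3476 (24.4%) higher and 3402 (23.8%) lower in shDnmt3a. By a log2 of at least 1, 353 genes (2.47%) were higher and 250 (1.75%) lower. The genes named here were chosen by a rule on size and test, and the others given as examples of a list were picked after their values were seen. Counts over a gene list are of its members that passed the filter on low counts, which a rare gene can do through the group where it is high, and the share of a list that was called is to be read against 48.2%. Most calls were of small size, and the median log2 fold change over all genes tested was −0.00736. The strongly different genes with a RefSeq sequence upstream of their start were mostly of low abundance. Their median was 1.61 CPM for the 237 higher and 1.33 CPM for the 179 lower. Over the 10275 tested genes with such a sequence it was 26.1 CPM. The level of the genes without one is not described.

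**Figure D1:**
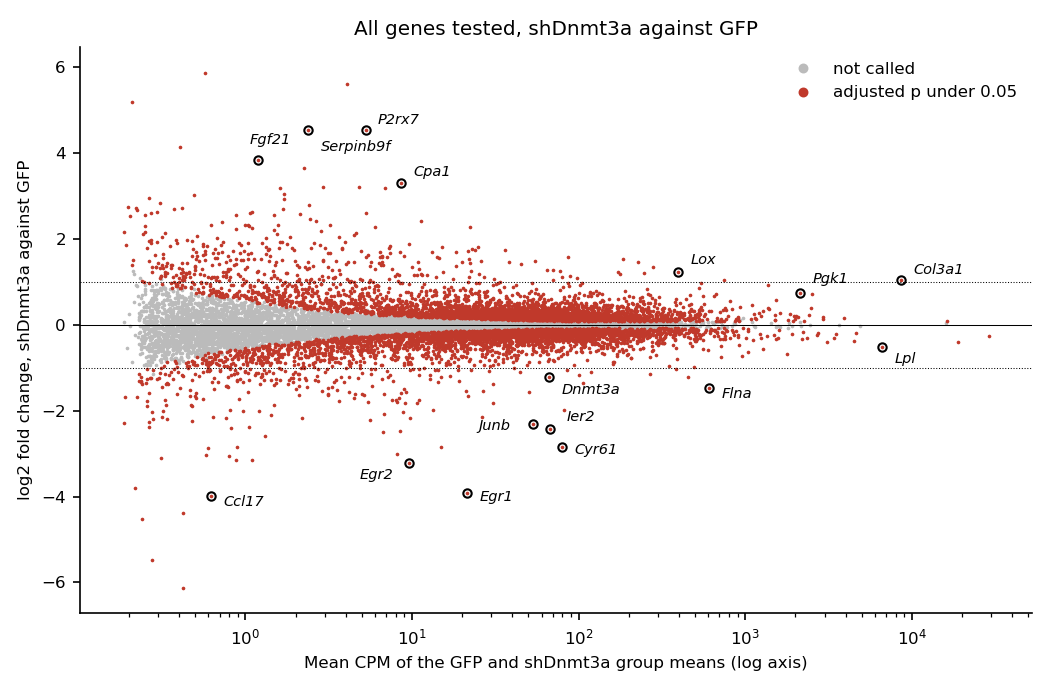
Log2 fold change of shDnmt3a against GFP (vertical axis) by mean CPM of the 2 group means (horizontal log axis), 1 point per feature tested, with called genes in red and dotted lines at a log2 fold change of 1 and −1. P2rx7 stands highest of the labelled genes at 4.54 and Ccl17 lowest at −3.98.

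The genes that stood furthest above GFP were of low abundance in the GFP libraries, and of low abundance in shScr as well. P2rx7, an ATP-gated cation channel, was at 0.399, 0.546 and 0.34 CPM in GFP and 10.3, 9.6 and 10.3 CPM in shDnmt3a (adjusted p = 1.87e-18, 4.54 ± 0.15, here and in what follows the log2 fold change of shDnmt3a against GFP ± its standard error). Every shDnmt3a library lay above every GFP library for this gene and the others given next, as the naming rule asked. Fgf21, a hormone that improves insulin sensitivity, was at 0.105, 0.273 and 0.085 CPM in GFP, 2.12, 2.6 and 1.95 CPM in shDnmt3a and 0.0573, 0.131 and 0.453 CPM in shScr. Its log2 fold change against GFP was 3.83 (standard error 0.30, adjusted p = 6.92e-11). Serpinb9f, a clade B serine protease inhibitor, was at 0.105, 0.149 and 0.368 CPM in GFP and 4.59, 4.41 and 4.71 CPM in shDnmt3a (4.52 ± 0.24). Acer2, an alkaline ceramidase of the Golgi that breaks down ceramide, was at 0.336, 0.248 and 0.425 CPM in GFP and 4.09, 4.63 and 3.86 CPM in shDnmt3a (3.65 ± 0.20). Like Fgf21, both were below 0.5 CPM in every control library. Cpa1, a pancreatic carboxypeptidase, was at 1.59, 1.29 and 1.81 and 15.5, 16.2 and 14.7 CPM in the same order (3.31 ± 0.11). Gpnmb, a transmembrane glycoprotein, reached 3.21 ± 0.13. Gpr133, an adhesion G protein-coupled receptor, reached 3.20 ± 0.17, and Ang3, a secreted ribonuclease of the angiogenin family, 3.19 ± 0.23. Pnliprp1, a pancreatic lipase-related protein, had 2 reads over the 3 GFP libraries and 127 over the 3 shDnmt3a libraries, a ratio of 69.5 after scaling (95% interval 18.8 to 580, of counting error only). Serpinb9f and Ang3 have close paralogs with which reads may be shared.

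**Figure D2:**
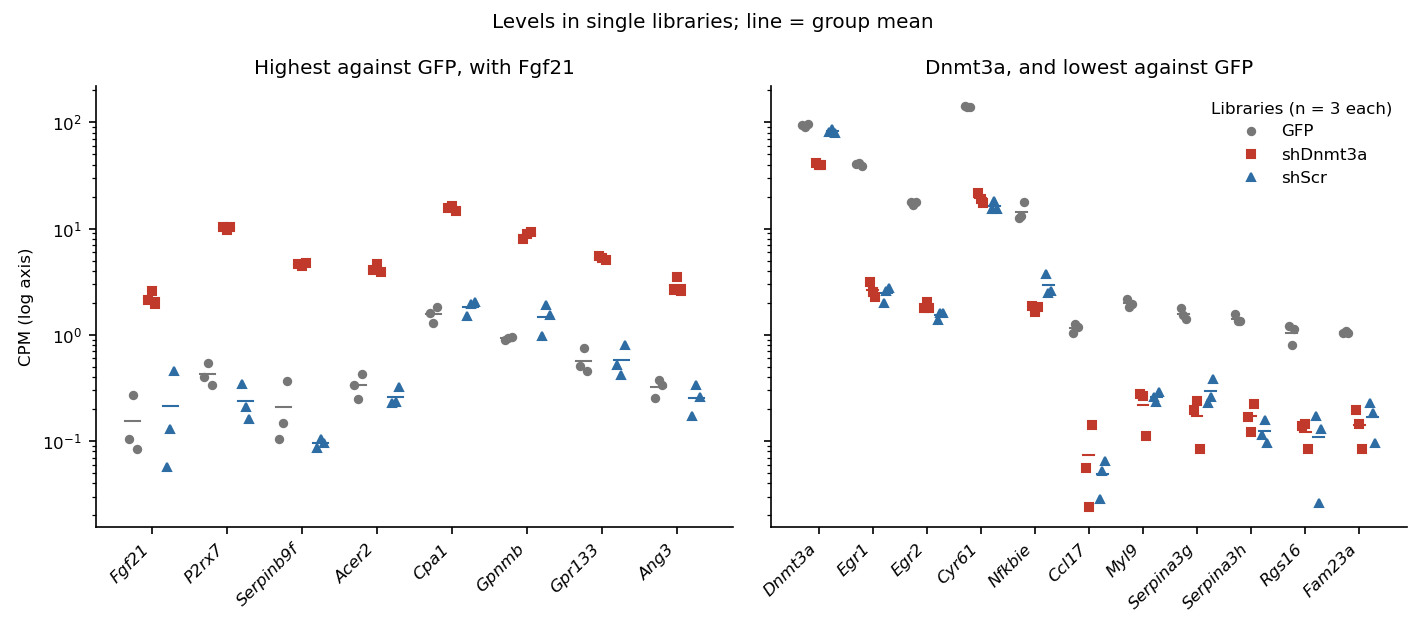
CPM (log axis) in each GFP, shDnmt3a and shScr library for the genes highest against GFP with Fgf21 (left) and for Dnmt3a and the genes lowest against GFP (right), with points for libraries and short lines for group means. On the left the shDnmt3a libraries stand apart from both controls, for example at 10.3, 9.6 and 10.3 CPM for P2rx7, and on the right the 2 hairpin groups lie close to each other for Egr1, Egr2 and Cyr61, but not for Dnmt3a.

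The 250 bases upstream of the start of 4 of these genes are shown because their CpGs are where a DNA methyltransferase could act, with the CpGs in capitals. The sequences are those of RefSeq on GRCm38.p6, read along the gene. P2rx7 (plus strand, chr5:122643677-122643926) held 6 CpGs, Serpinb9f (plus strand, chr13:33323827-33324076) 2, Fgf21 (minus strand, chr7:45615491-45615740) 9 and Acer2 (plus strand, chr4:86874164-86874413) 24.
P2rx7: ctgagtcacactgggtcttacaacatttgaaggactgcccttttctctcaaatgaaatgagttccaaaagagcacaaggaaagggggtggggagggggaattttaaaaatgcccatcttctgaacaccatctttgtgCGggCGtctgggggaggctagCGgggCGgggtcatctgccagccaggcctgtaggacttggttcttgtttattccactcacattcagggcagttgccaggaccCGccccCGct
Serpinb9f: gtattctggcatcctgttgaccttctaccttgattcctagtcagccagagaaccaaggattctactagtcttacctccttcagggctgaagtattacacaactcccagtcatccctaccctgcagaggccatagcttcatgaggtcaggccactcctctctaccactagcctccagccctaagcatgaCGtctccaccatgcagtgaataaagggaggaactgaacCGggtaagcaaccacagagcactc
Fgf21: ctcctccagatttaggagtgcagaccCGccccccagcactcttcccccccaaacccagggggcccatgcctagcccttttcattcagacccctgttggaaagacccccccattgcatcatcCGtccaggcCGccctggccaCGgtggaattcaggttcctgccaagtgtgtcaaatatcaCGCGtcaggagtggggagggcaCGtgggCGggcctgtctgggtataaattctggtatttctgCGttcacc
Acer2: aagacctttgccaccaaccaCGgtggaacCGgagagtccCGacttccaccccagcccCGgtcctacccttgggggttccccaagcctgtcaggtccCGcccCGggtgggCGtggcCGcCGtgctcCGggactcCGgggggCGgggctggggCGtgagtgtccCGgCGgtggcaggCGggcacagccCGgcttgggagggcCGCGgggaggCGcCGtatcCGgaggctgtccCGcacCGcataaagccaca
Of the genes higher by a log2 of at least 1, 68.1% had such a sequence, against 73.2% of the genes tested. Those with a sequence held a median of 5 CpGs. The median was 15 over the genes tested and 13 for the genes lower by a log2 of at least 1. The genes without a sequence are not described, and the reason for the difference was not tested. Methylation was not measured in these libraries, and no sequence was matched for Gpr133.

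Immediate early genes, which are switched on within minutes of a growth factor, serum or stress signal and encode mostly transcription factors and phosphatases, were mostly lower: 19 of the 24 tested were lower in shDnmt3a, 11 of them by a log2 of at least 1, and 3 were higher. Their median log2 fold change was −0.73, and 91.7% of the list was called against 48.2% of all genes. Egr1, a zinc finger transcription factor, was at 40.1, 41.5 and 38.7 CPM in GFP and 3.17, 2.53 and 2.28 CPM in shDnmt3a (log2 fold change −3.92, standard error 0.084, adjusted p = 2.93e-22). Egr2, its relative, was at 17.7, 16.6 and 17.7 and 1.78, 2.05 and 1.78 CPM (−3.21 ± 0.098). The naming rule asked for groups that do not overlap, and no shDnmt3a library came near a GFP library for either gene. Ier2, a nuclear regulator induced by growth factors, was at 113, 112 and 114 CPM in GFP and 20.3, 21.6 and 20.6 CPM in shDnmt3a (−2.44 ± 0.044), and Junb, a subunit of the AP-1 transcription factor, at −2.31 ± 0.046. Fos, the partner of Jun proteins in AP-1, stood at −2.86 ± 0.084, Myc at −1.83 ± 0.093 and the stress-induced Atf3 at −1.62 ± 0.10. Members that were higher were the AP-1 subunits Jund (0.51) and Fosl2 (0.48) and the survival gene Ier3 (0.41). In shScr Egr1 was at 2.01, 2.6 and 2.78 CPM, near the shDnmt3a libraries, and the median of the list was −1.39 for shScr against GFP and 0.35 for shDnmt3a against shScr. Fos, by contrast, was at 1.55, 1.65 and 1.68 CPM in shScr, below every shDnmt3a library, which read 3.45, 3.4 and 4 CPM.

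Targets of SRF and YAP, the transcription factors that couple actin dynamics and cell tension to gene expression, were lower in 13 of 21 cases and higher in 3 (median −0.34, 76.2% called). Cyr61, a matricellular YAP target, was at 142, 139 and 138 CPM in GFP and 21.6, 18.8 and 17.4 CPM in shDnmt3a (log2 fold change −2.86, standard error 0.052, adjusted p = 1.58e-23). Flna, the actin crosslinker filamin A, was at 926, 851 and 912 and 325, 324 and 323 CPM (−1.47 ± 0.035). Actg1, cytoplasmic gamma actin, was at 643, 651 and 619 and 287, 265 and 268 CPM (−1.22 ± 0.036), and Myl9, a myosin light chain, at −3.15 ± 0.27 with about 2 CPM in GFP. In all 4 the groups lay apart, as the naming rule asked of Cyr61 and Myl9. The exceptions were Ctgf, a close relative of Cyr61 and like it a YAP target, at 3.15, 4.25 and 3.23 CPM in GFP and 10.9, 8.97 and 9.33 CPM in shDnmt3a (1.46 ± 0.11), and Lmod1, an actin nucleator of smooth muscle (1.57 ± 0.10), while Tagln2 was higher by 0.12. In shScr Ctgf was at 1.23, 1.29 and 1.72 CPM, below GFP, so that the 2 hairpin groups stood on opposite sides of GFP for this gene. The list as a whole had a median of 0.19 for shDnmt3a against shScr and −0.59 for shScr against GFP.

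A CArG box, the element that SRF binds, was found within 250 bases upstream in 5 of the 18 members of this list with a RefSeq sequence (27.8%) and in 1.4% of the 27025 upstream regions of the same length. The list was made up of targets of SRF and YAP, so a share above that of all regions is no result of these data. The windows of the 5 are shown with 1 box each in capitals, on GRCm38.p6 and along the gene: Myl9 (plus strand, chr2:156775295-156775320), Actg1 (minus strand, chr11:120348568-120348593), Cnn2 (plus strand, chr10:79988536-79988561), Vcl (plus strand, chr14:20929163-20929188) and Srf itself (minus strand, chr17:46556227-46556252).
Myl9: agcagaggCCTAATAAGGccgggctg
Actg1: aaagatcgCCATATATGGacatgttc
Cnn2: cttccacgCCTTATAAGGacatttgc
Vcl: cactatgcCCTTATAAGGagcgcccc
Srf: ggggctcgCCATATAAGGagcggcct
All 5 of these genes were lower in shDnmt3a than in GFP, with log2 fold changes of −3.15, −1.22, −0.69, −0.44 and −0.58. Over the whole list 13 of 21 tested members were lower. Cyr61 and Flna, also lower, were not among the matches. Both strands were searched, and a match describes letters, not binding.

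NF-kB targets, the inflammatory program that cytokines such as TNF switch on in fat cells, were lower in 18 of 27 cases and higher in 2 (median −0.56, 74.1% called), with 9 lower by a log2 of at least 1. Nfkbie, an inhibitor that is itself induced by NF-kB, was at 12.6, 13 and 17.7 CPM in GFP and 1.87, 1.64 and 1.83 CPM in shDnmt3a (−3.02 ± 0.14). Csf1, the growth factor of macrophages, was at 133, 128 and 132 and 34.5, 31.9 and 33.3 CPM (log2 fold change −1.98, standard error 0.042, adjusted p = 2.07e-22). Relb, an NF-kB subunit, stood at −1.65 ± 0.071 and Gadd45b, a stress sensor, at −2.48 ± 0.10. The groups did not overlap for these 4 genes, as the naming rule asked of Nfkbie. Among the chemokines and cytokines of the list, Ccl2, the main monocyte attractant of fat, stood at −1.99 ± 0.092 and Il6 at −1.49 ± 0.17. Ccl17, a chemokine for T cells, was not a member of the list and was named as one of the lowest genes. It stood at −3.98 ± 0.40 from 1.05, 1.27 and 1.19 CPM in GFP. Ccl2 and its paralog Ccl7 (−1.26) may share reads. Traf1, a TNF receptor adaptor, was at 0.755, 1.17 and 0.567 CPM in GFP and was listed at 0 in 2 shDnmt3a libraries, with 1 read in the other. Nfkb2 (0.31) and the inhibitor Nfkbib (0.30) were higher. Tnfaip3 (0.08), Cxcl5 (0.10) and Vcam1 (0.06) were among the members not called. The list had a median of −0.76 for shScr against GFP and 0.16 for shDnmt3a against shScr. Csf1 was lower in shDnmt3a than in shScr (−0.82), where it read 54, 63.2 and 58.8 CPM, and Ptgs2, the inducible cyclooxygenase, was near GFP in shDnmt3a (9.69, 9.74 and 10.9 against 12.5, 13 and 13.3 CPM, −0.35 ± 0.076) and at 3.64, 3.1 and 2.65 CPM in shScr.

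Serpina3g and Serpina3h lie in 1 gene cluster of the serpins, a family of protease inhibitors, and may share reads. Serpina3h is annotated as a processed transcript. Both were among the 10 lowest genes, at −3.15 ± 0.30 and −3.06 ± 0.30, as were Rgs16 (−3.04 ± 0.35), a brake on G protein signalling, and Fam23a (−2.88 ± 0.33). Genes averaging under 20 counts, such as Traf1, or with overlapping groups had been set aside. Each of the 4 lay between 0.795 and 1.78 CPM in the GFP libraries and between 0.0846 and 0.241 CPM in the shDnmt3a libraries. All 4 were below GFP in shScr, too, at −2.44 (Serpina3g), −3.48 (Serpina3h), −3.25 (Rgs16) and −2.59 (Fam23a).

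Mitosis genes were lower in 16 of 22 cases, with the other 6 not called (median −0.87, 72.7% called). Mki67, the proliferation marker Ki-67, was at 13.8, 14.5 and 14.1 CPM in GFP and 3.29, 3.47 and 3.67 CPM in shDnmt3a (−2.02 ± 0.089). Top2a, the topoisomerase that untangles chromosomes, was at 28.1, 26.3 and 27.2 and 11.1, 10.4 and 11.3 CPM (−1.32 ± 0.064), and Kif23, a kinesin of cell division, at −1.64 ± 0.16. The libraries of the 2 groups did not overlap for these 3. Plk1 (0.12), Cdk1 (0.04) and Bub1b (0.01) were not called. Among DNA replication genes 14 of 24 were lower and 1 higher (median −0.19, 62.5% called), with the ribonucleotide reductase subunit Rrm2 at −1.62 ± 0.12 and the helicase subunits Mcm6 at −1.22 ± 0.070 and Mcm5 at −1.25 ± 0.10, while Pcna (−0.07), the polymerase clamp, was not called. The 1 member that was higher was E2f2 (0.76), a regulator of S phase entry. For shScr against GFP the medians were −0.93 and −0.37.

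Among the writers, readers and erasers of DNA methylation, 4 of 18 were lower and 4 higher, 44.4% of the list against 48.2% of all genes. Beside Dnmt3a, the 2 that differed most were Uhrf1, the hemimethylated DNA reader that recruits Dnmt1, at 12.4, 12.7 and 13.6 CPM in GFP and 4.79, 4.48 and 3.44 CPM in shDnmt3a (−1.60 ± 0.099), and Hells, a chromatin remodeler needed for methylation, at 11.1, 12.1 and 11.3 and 7.07, 6.29 and 7.27 CPM (−0.75 ± 0.084). Both are tied to DNA replication, and in shScr, too, they lay below GFP (−1.05 and −1.18). The other methyltransferases were not called, with Dnmt1 at −0.09 and Dnmt3b at −0.16. Of the TET enzymes that oxidize the mark, Tet3 was higher (0.20), and Tet1 (−0.08) and Tet2 (0.03) were not called. The methyl-CpG readers Zbtb38 (0.36) and Mbd2 (0.19) were higher and Mbd3 (−0.22) lower.

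Hypoxia response genes, the targets of the HIF transcription factors, were mostly higher, 22 of 26 against 1 lower (median 0.35, 88.5% called). Lox, which crosslinks collagen, was at 233, 244 and 234 CPM in GFP and 564, 545 and 549 CPM in shDnmt3a (log2 fold change 1.22, standard error 0.034, adjusted p = 5.45e-20). P4ha2, a collagen prolyl hydroxylase, was at 109, 110 and 105 and 245, 246 and 244 CPM (1.18 ± 0.035), and Ddit4, an inhibitor of mTOR signalling, at 28.1, 29.8 and 28.6 and 86.1, 79.2 and 78 CPM (1.49 ± 0.048). The groups lay apart for all 3. Car9, a carbonic anhydrase and classical HIF target, was at 16.7, 15.2 and 14 CPM in GFP, 34.4, 35.5 and 35 CPM in shDnmt3a and 4.21, 2.86 and 4.21 CPM in shScr. Vegfa, the angiogenic factor, was higher by only 0.13, Hif1a by 0.13, Epas1 (0.11) and Hif3a (−0.21) were not called, and Angptl4, an inhibitor of lipoprotein lipase, was lower (−0.19). The median of the list was 1.13 for shDnmt3a against shScr and −0.43 for shScr against GFP.

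Of the glycolysis genes, which break glucose down to pyruvate and lactate, 13 of 14 were higher than in GFP, with Pfkm (0.28) not called (median 0.40, against 0.92 for shDnmt3a against shScr and −0.42 for shScr against GFP). Pgk1, phosphoglycerate kinase, was at 1620, 1590 and 1590 CPM in GFP and 2630, 2640 and 2700 CPM in shDnmt3a (0.73 ± 0.028), Pkm2, pyruvate kinase, at 1950, 1830 and 1910 and 3000, 3200 and 3110 CPM (0.71 ± 0.031), and Pgam1, phosphoglycerate mutase, at 1210, 1220 and 1240 and 1820, 1860 and 1840 CPM (0.58 ± 0.029). These are among the more abundant messages of the cell, and for none of the 3 did the groups overlap. Many glycolysis enzymes are themselves HIF targets, so the 2 lists are not independent.

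Interferon response genes, the antiviral program, went in both directions against GFP: 24 of 45 were higher, 8 lower and 13 not called (median 0.14, 71.1% called), whereas the median was −0.99 for shDnmt3a against shScr and 1.05 for shScr against GFP. Bst2, the tetherin that holds virions on the cell, was at 57.7, 60.2 and 57.8 CPM in GFP, 113, 118 and 114 CPM in shDnmt3a and 228, 225 and 239 CPM in shScr (0.97 ± 0.038 against GFP). Ifi44, an interferon-induced protein, was at 0.96 ± 0.057 and Oasl2, a relative of the double-stranded RNA sensors, at 0.67 ± 0.042, with 47.9, 45.6 and 44.6 CPM in GFP and 73.4, 73.9 and 73.1 in shDnmt3a. For these 3 genes the shDnmt3a libraries lay between GFP and shScr. Isg15, a ubiquitin-like modifier, was at 18.6, 21.5 and 18.6 CPM in GFP and 21.9, 22.2 and 21.7 CPM in shDnmt3a (0.16 ± 0.063), and Ifit3 at 77.1, 79.5 and 75.4 and 66.3, 71.5 and 76.9 CPM (−0.11 ± 0.045), both close to GFP. Mx1, a dynamin-like antiviral GTPase, was lower than both controls, at 7.91, 7.42 and 7.54 CPM in GFP, 3.76, 3.52 and 3.92 in shDnmt3a and 11.3, 10.4 and 11.6 in shScr (−1.04 ± 0.099 against GFP), and its paralog Mx2 was lower too (−0.71).

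MHC class I genes, which display peptides to T cells, differed little from GFP, with 2 of 16 higher and 3 lower (31.2% called, below the 48.2% of all genes, median 0.03). The heavy chain H2-K1 was at 542, 550 and 541 CPM in GFP and 491, 508 and 502 CPM in shDnmt3a (−0.12 ± 0.031), and the peptide transporter Tap1 at 44.4, 42 and 43.5 and 37.3, 37.9 and 36.7 CPM (−0.22 ± 0.047), small but separate in every library. Tapbp, the loading factor tapasin, was slightly higher (0.14 ± 0.034). In shScr the same 3 genes were above GFP by 0.81, 0.80 and 0.50.

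**Figure D3:**
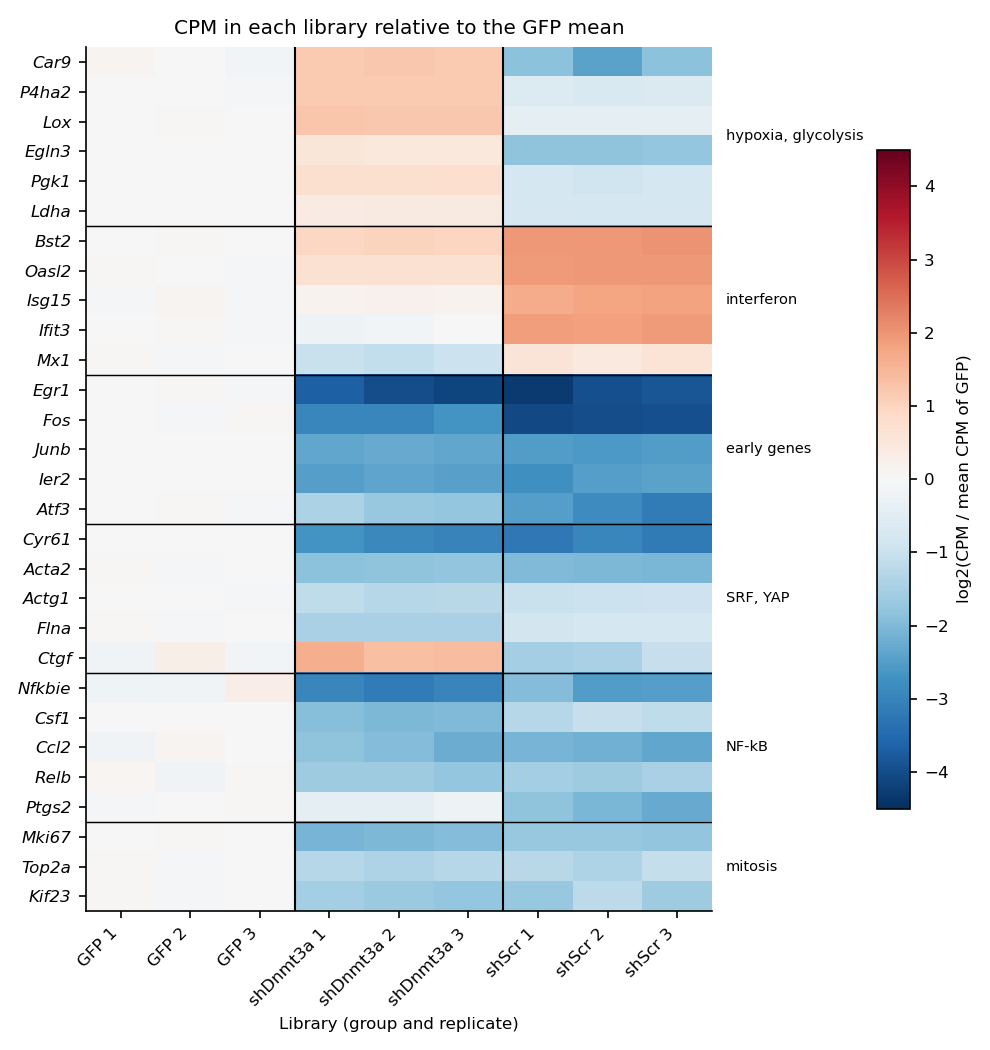
Heat map of log2(CPM / mean CPM of GFP) for genes of 6 lists (rows) in each of the 9 GFP, shDnmt3a and shScr libraries (columns), red for above and blue for below the GFP mean. The hypoxia and glycolysis genes drawn are above GFP in shDnmt3a and below it in shScr, the interferon genes drawn are highest in shScr, and the early, actin-linked, NF-kB and mitosis genes drawn are below GFP in both hairpin groups, except Ctgf, at 10.9, 8.97 and 9.33 CPM in shDnmt3a.

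Oxidative phosphorylation subunits were called about as often as all genes, 40.6% against 48.2%: 9 of 32 were lower and 4 higher, or 7 higher without GFP replicate 2 (median −0.01), against medians of −0.38 for shDnmt3a against shScr and 0.36 for shScr against GFP. Cox6c, a subunit of cytochrome oxidase, was at 115, 128 and 121 CPM in GFP and 84.5, 92.9 and 89.2 CPM in shDnmt3a (−0.45 ± 0.042), Cyc1, cytochrome c1, at −0.34 ± 0.036 and the ATP synthase subunit Atp5b at −0.17 ± 0.028. All 3 were lower in shDnmt3a than in every GFP library.

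Of 32 tested genes of fatty acid oxidation and ketogenesis, 19 were higher and 3 lower (median 0.13, 68.8% called). Members above a log2 of 1 included 3 known targets of the PPAR nuclear receptors: Ehhadh, the peroxisomal bifunctional enzyme, at 0.567, 0.497 and 0.51 CPM in GFP and 2.31, 2.39 and 2.59 CPM in shDnmt3a (2.20 ± 0.20), the fatty acid omega-hydroxylase Cyp4a10 (1.86 ± 0.28) and Cpt1b, the muscle form of the carnitine palmitoyltransferase that admits fatty acids to mitochondria, at 3.17, 3.55 and 3.29 and 9.44, 9.93 and 10.5 CPM (1.58 ± 0.097). Pdk4, which blocks the entry of pyruvate into the citric acid cycle, was at 14.7, 14.6 and 13.8 and 24.8, 25.9 and 27.2 CPM (0.85 ± 0.062). The abundant enzymes moved less, for example Hadha (0.36) and Cpt1a (0.23), and Acadm (0.07) was not called. Against shScr, 7 of 32 members were higher in shDnmt3a and 18 lower (median −0.13). The median for shScr against GFP was 0.33.

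Adipocyte identity genes went in both directions, 9 of 27 higher and 12 lower (median −0.08, 77.8% called). Lpl, lipoprotein lipase, was at 7710, 7910 and 7700 CPM in GFP and 5380, 5560 and 5410 CPM in shDnmt3a (−0.51 ± 0.025). Retn, the adipokine resistin, was at 23.7, 26 and 24.7 and 12.8, 12.1 and 13.4 CPM (−0.96 ± 0.065), the largest difference of the list. Dgat2, which completes triglyceride synthesis, was higher, at 189, 183 and 189 and 267, 261 and 252 CPM (0.47 ± 0.036). The defining markers Pparg (−0.09), Fabp4 (−0.38) and Cfd (−0.31) were lower by less than a log2 of 0.5 and Adipoq (−0.08) was not called. Summed over the list, GFP libraries held 37300 to 37700 CPM, shDnmt3a libraries 32900 to 33400 CPM and shScr libraries 34900 to 36000 CPM. For shDnmt3a against shScr, Lpl was not called (0.02), Retn (−1.25) and Dgat2 (−0.29) were lower, and the list median was −0.06.

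Lipogenesis genes were lower in 9 and higher in 5 of 20 cases (median −0.13, 70% called). Scd1, the stearoyl-CoA desaturase, was at 31700, 31600 and 31600 CPM in GFP and 26600, 26400 and 25900 CPM in shDnmt3a (−0.27 ± 0.020), the elongase Elovl6 at −0.60 ± 0.052 and the elongase Elovl5 at 0.40 ± 0.038, so the 2 elongases differed from GFP in opposite directions. For shDnmt3a against shScr, Scd1 (0.07) and Elovl5 (0.41) were higher, Elovl6 (−1.16) was lower and the list median was 0.03. In the cholesterol synthesis list 13 of 23 were lower and 1 higher (median −0.17, 60.9% called), among them the late enzymes Sc5d (−0.56 ± 0.040) and Cyp51 (−0.38 ± 0.035) and mevalonate kinase Mvk (−0.35 ± 0.040).

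Collagens and other matrix genes were split, 15 of 34 higher and 13 lower (82.4% called, median 0.08), and some of the largest differences by level were here. Col3a1, the chain of collagen III, was at 5770, 5560 and 5550 CPM in GFP and 11500, 11600 and 11600 CPM in shDnmt3a (log2 fold change 1.04, standard error 0.025, adjusted p = 2.38e-21). Dcn, the proteoglycan decorin, was at 92, 102 and 92.9 and 272, 274 and 279 CPM (1.52 ± 0.040), and Thbs2, a matricellular glycoprotein, at 376, 354 and 376 and 715, 720 and 720 CPM (0.96 ± 0.034). These 3 were also above GFP in shScr, by 0.44, 1.12 and 0.38, and above shScr in shDnmt3a, by 0.61, 0.41 and 0.59. On the lower side were the protease inhibitor Timp1 (−1.83 ± 0.080), Thbs1 (−0.58) and the collagen I chain Col1a1 (−0.36), while Col1a2 (0.06) was not called. Among the collagenases Mmp13 was higher (1.72 ± 0.062) and the stromelysin Mmp3 lower (−1.08).

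Secreted hormones included several of the larger rises: 8 of 18 adipokines and hormones were higher and 5 lower (median 0.24, 72.2% called). Apln, apelin, a ligand of the APJ receptor, was at 62.7, 63.3 and 63.1 CPM in GFP, 133, 135 and 131 CPM in shDnmt3a and 34.9, 34.6 and 33.1 CPM in shScr (1.08 ± 0.036 against GFP). Ghrh, growth hormone-releasing hormone, was at 8.65, 9.11 and 8.24, 26.7, 30.5 and 26.9 and 0.974, 1.31 and 1.36 CPM in the same order of groups (1.69 ± 0.071). For both genes GFP lay between the 2 hairpin groups. C1qtnf1, a C1q and TNF related adipokine, was at 2.16, 2.11 and 1.81 CPM in GFP and 10.8, 8.63 and 10.5 CPM in shDnmt3a (2.28 ± 0.12), and shScr, at 2.35, 1.86 and 2.78 CPM, did not differ detectably from GFP (0.19, standard error 0.17). Igf1 was lower (−0.45), and Adipoq (−0.08) and leptin, Lep (0.03), were not called.

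Genes of the integrated stress response, which cells use when amino acids or protein folding fail, were lower in 20 of 26 cases (median −0.37, 80.8% called). Trib3, a pseudokinase that inhibits Akt, was at 160, 148 and 150 CPM in GFP and 61.2, 61.1 and 57.6 CPM in shDnmt3a (log2 fold change −1.35, standard error 0.040, adjusted p = 2.31e-19). Slc3a2, the heavy chain of amino acid exchangers, was at 219, 211 and 207 and 120, 114 and 116 CPM (−0.87 ± 0.037), and Mthfd2, a mitochondrial folate enzyme, at 84.9, 83.9 and 83.3 and 46.4, 46.6 and 48.2 CPM (−0.84 ± 0.040). The regulator Atf4 was lower as well (−0.61). The 1 member that was higher was Fgf21, itself a known Atf4 target, whose difference thus ran against that of the 20 lower members. Trib3, Slc3a2 and Mthfd2 were lower than in shScr as well (−0.68, −0.48 and −0.43), whereas the list had a median of −0.08 for shDnmt3a against shScr, with 8 members higher and 12 lower, and of −0.35 for shScr against GFP.

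Of 15 heat shock genes, 10 were higher and 2 lower (median 0.19, 80% called), with the cochaperone Hsph1 at 0.46 ± 0.052, Hspa1b at 0.42 ± 0.062 and Dnajb1 at 0.29 ± 0.044. Hspa1b and Hspa1a are near-identical and may share reads. Of the ER chaperones 9 of 20 were higher and 5 lower (median 0.06, 70% called), or 5 higher without shDnmt3a replicate 2 or 3. Edem1, which sends misfolded glycoproteins to degradation, was at −0.73 ± 0.037, the transcription factor Xbp1 at −0.37 ± 0.036 and the disulfide isomerase P4hb at 0.31 ± 0.033. NRF2 and metal response genes were lower in 11 and higher in 6 of 24 cases (median −0.08, 70.8% called). Hmox1, heme oxygenase, was at 467, 456 and 454 CPM in GFP, 239, 237 and 227 CPM in shDnmt3a and 145, 151 and 152 CPM in shScr (−0.97 ± 0.034 against GFP), the sulfiredoxin Srxn1 at −0.54 ± 0.036 and the glutathione transferase Gstm2 at 0.52 ± 0.035. Hmox1 was thus highest in GFP.

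In the insulin signalling and glucose uptake list 11 of 31 were higher and 9 lower (median −0.01, 64.5% called). Irs2, a docking protein of the insulin receptor, was at 156, 128 and 143 CPM in GFP and 97.9, 92.7 and 83.7 CPM in shDnmt3a (−0.64 ± 0.056), Irs1 was lower too (−0.34), and Irs3, the third docking protein of rodent fat, was higher at 1.99, 1.91 and 1.9 and 4.54, 4.63 and 4.88 CPM (1.27 ± 0.13). Downstream, the kinase Akt2 (0.33), the Rab regulator Tbc1d4 (0.36) and the glucose transporter Slc2a4 (0.15) were higher by small amounts, and Insr (−0.07), the receptor, was not called. The adaptor Grb10, which damps the receptor and is imprinted, was higher at 1.47 ± 0.22. In shScr Irs2 was at 72.7, 87.2 and 92 CPM, below GFP (−0.755), and Irs2 was not called between the 2 hairpin groups (0.12). Irs3 was higher in shDnmt3a than in shScr as well (0.81). The list median was 0.085 for shDnmt3a against shScr and 0.006 for shScr against GFP.

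Of the 17 ligands, receptors and feedback inhibitors of FGF21 signalling tested, 4 were higher and 7 lower (median −0.15, 64.7% called). The receptor Fgfr1 (−0.20) and the coreceptor Klb (−0.29) were slightly lower. Spry4, a feedback inhibitor of receptor tyrosine kinases, was at 86.7, 84.8 and 79.9 CPM in GFP and 53.4, 47.7 and 44.3 CPM in shDnmt3a (−0.79 ± 0.051), and Spry2 at 34.2, 36.7 and 32.3 and 20.4, 22.4 and 21.9 CPM (−0.68 ± 0.058). In shScr Spry4 was below GFP by about the same (−0.69).

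Clade B serpins, intracellular protease inhibitors that protect cells from granzymes and cathepsins, were higher in 6 of 13 tested members, 5 of them by a log2 of at least 1, and the other 7 were not called. The share called, 46.2%, is near the 48.2% of all genes, and rare members such as Serpinb9f passed the filter through shDnmt3a. Serpinb9c was at 1.51, 1.89 and 1.05 CPM in GFP and 9.22, 8.51 and 9.42 CPM in shDnmt3a (2.59 ± 0.13), and Serpinb9e at 0.336, 0.447 and 0.397 and 2.42, 3.33 and 3.24 CPM (2.94 ± 0.22). These lie in the cluster of Serpinb9f on mouse chromosome 13 and may share its reads. Serpinb9 itself, the founding member, was not called (0.08).

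Germline genes that DNA methylation usually silences in other tissues went in both directions. Of 32 such genes in the table, only 13 had enough counts to be tested, 4 were higher and 4 lower. Only 2 were higher with DESeq2, at a threshold of 0.01, or without replicate 3 of either group. Dazl, a germ cell RNA-binding protein, was at 0.378, 0.422 and 0.51 CPM in GFP and 1.75, 1.47 and 1.69 CPM in shDnmt3a (1.91 ± 0.24), but was also above GFP in shScr (1.35). Piwil2, a piRNA-binding Argonaute, was at −1.87 ± 0.35 and Sycp2, a synaptonemal complex protein, at −0.50 ± 0.057, both lower. Sycp2 was not silent in these cells, at 33.2, 37.7 and 34.1 CPM in GFP. Since genes that pass the filter only in the group where they are high had to differ, these counts say little on the untested members. Among imprinted genes, whose expression follows inherited methylation, 12 of 22 were higher and 3 lower (median 0.20, 68.2% called), with the retrotransposon-derived Peg10 at 386, 387 and 349 CPM in GFP, 723, 663 and 650 CPM in shDnmt3a and 137, 167 and 159 CPM in shScr (0.86 ± 0.041 against GFP) and Igf2r, the clearance receptor of IGF2, at 0.26 ± 0.035. Decorin, described above, belongs to this list too.

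Genes that differed from both controls in the same direction were picked by the smaller of their 2 differences. For reference, 45.8% of the 14115 genes tested were called between shDnmt3a and shScr. The highest included P2rx7, Serpinb9f, Pnliprp1, Acer2, Fgf21, Gpr133 and Ang3, all described above. Gpr133 differed from the 2 controls by the same amount, 3.20 against GFP and 3.20 against shScr. The 8 lowest were of modest size. Cnrip1, a partner of the cannabinoid receptor, was at 3.34, 2.14 and 2.32 CPM in GFP and 0.807, 1.33 and 0.846 CPM in shDnmt3a (−1.38 ± 0.21). Upp1, uridine phosphorylase, was at 2.5, 2.98 and 2.86 and 1.09, 1.21 and 0.987 CPM (−1.33 ± 0.17), and Cxcl10, an interferon-induced chemokine, at 3.36, 3.1 and 3.17 and 1.03, 1.47 and 1.55 CPM (−1.25 ± 0.16), with no overlap of the groups, as the naming rule asked. Bicc1, an RNA-binding protein, stood at −1.24 ± 0.12, Pcyox1l, a relative of prenylcysteine oxidase, at −1.28 ± 0.13 and Slfn9, of the interferon-linked Schlafen family, at −1.16 ± 0.083. Dnmt3a and Mx1 complete the 8. The log2 difference of shScr from GFP was small for Cxcl10 (0.03), Upp1 (0.18) and Cnrip1 (0.16), none of which was called between those groups, where 45.2% of 14133 genes tested were called.

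Other genes differed between shDnmt3a and GFP while the 2 hairpin groups were alike, with an absolute log2 difference under 0.2 between shDnmt3a and shScr. Mmp27, a matrix metalloproteinase, was at 0.797, 0.993 and 0.453 CPM in GFP, 4.15, 4.46 and 3.89 CPM in shDnmt3a and 4.24, 3.89 and 3.46 CPM in shScr (2.45 ± 0.18 against GFP). Mmp13, a collagenase, was at 9.95, 9.96 and 10.4, 31.9, 33.3 and 34.2 and 35, 30.5 and 27.2 CPM (1.72 ± 0.062). GFP stood apart from both hairpin groups, which overlapped each other. The other 6 highest were the adipokine C1qtnf3 (2.04), the cartilage protein Cilp (1.91), 1500015O10Rik (1.79), the coagulation transglutaminase F13a1 (1.74), the secretogranin Scg2 (1.68) and Rbpjl (1.64), a transcription factor related to the Notch effector. On the lower side were Egr1, Gadd45b and Ier2, described above, with the inhibitor of differentiation Id3, at 41.3, 45.2 and 43.4 CPM in GFP, 9.63, 10 and 9.45 in shDnmt3a and 8.05, 8.93 and 9.39 in shScr (−2.16 ± 0.061), the drug efflux pump Abcb1b at 11.8, 11.6 and 10.9, 2.2, 1.81 and 2.11 and 2.35, 2 and 1.97 CPM (−2.50 ± 0.11), the ephrin receptor Epha2 (−2.07 ± 0.11), the kinase Nek10 (−2.60 ± 0.22) and Troap (−2.16 ± 0.35), a spindle protein. For Id3, Abcb1b and Epha2, as for Egr1, every GFP library lay above all 6 hairpin libraries. These values were picked for the likeness of the hairpin groups and describe it only.

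**Figure D4:**
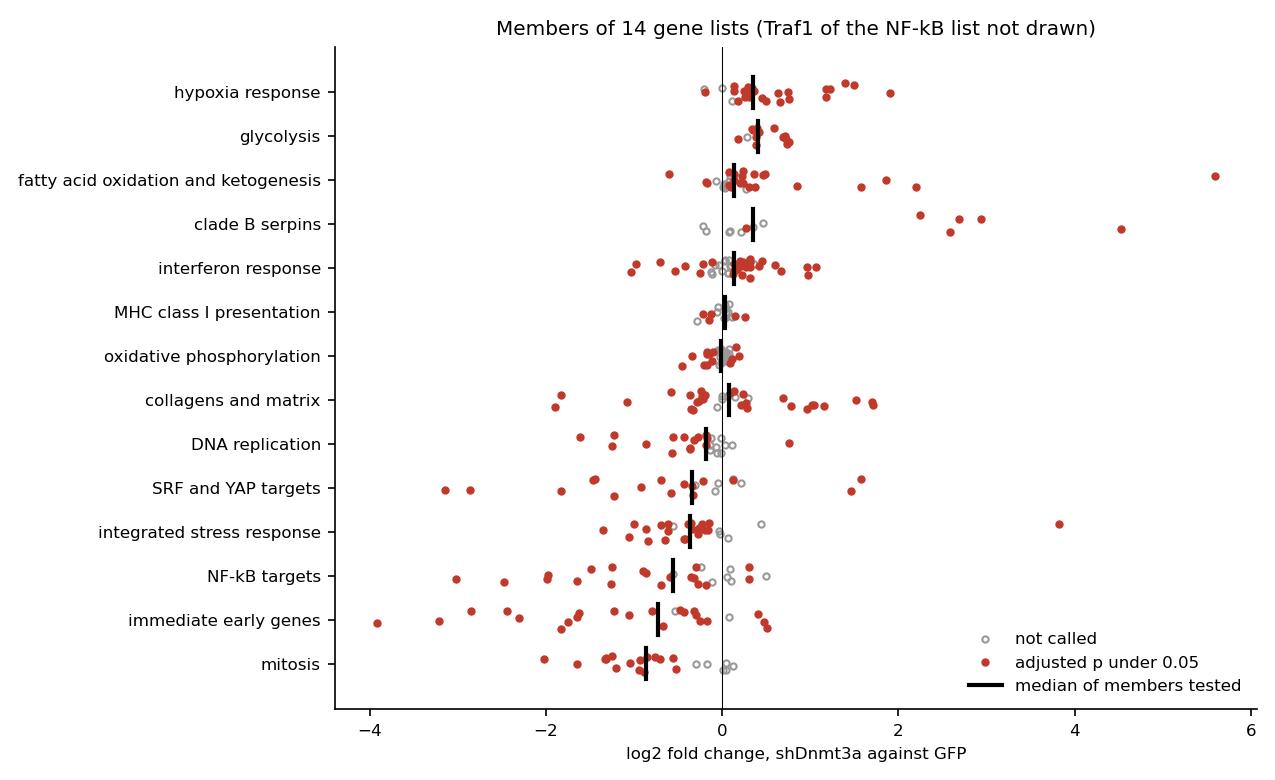
Log2 fold change of shDnmt3a against GFP (horizontal axis) for the tested members of 14 gene lists (rows), 1 point per gene, filled red where called, with a black bar at the list median and Traf1 not drawn. Hypoxia response and glycolysis lie to the right at 0.35 and 0.40, and mitosis, immediate early genes and NF-kB targets to the left at −0.87, −0.73 and −0.56, while MHC class I and oxidative phosphorylation have medians near 0, at 0.03 and −0.01.

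Some markers of cell types other than adipocytes differed between the groups. Of the preadipocyte and fibroblast markers 7 of 14 were lower and 2 higher (median −0.15, 64.3% called), with vimentin (Vim) at 1200, 1180 and 1190 CPM in GFP and 710, 719 and 722 CPM in shDnmt3a (−0.73 ± 0.030), the PDGF receptor Pdgfrb at −0.29 ± 0.045 and its relative Pdgfra higher at 0.58 ± 0.036. Of the macrophage and leukocyte markers 4 of 9 tested were higher and 1 lower: the tetraspanin Cd53 was at 2.79, 3.67 and 3.34 CPM in GFP and 11.8, 11 and 11.1 CPM in shDnmt3a (1.80 ± 0.10), the perforin-like Mpeg1 at 0.79 ± 0.11 and Cd68 at −0.75 ± 0.12. The pan-leukocyte marker Ptprc averaged 0.157 CPM in GFP and 0.14 CPM in shDnmt3a. Endothelial markers gave 2 of 6 higher (33.3% called, below the share of all genes), Egfl7 (0.56 ± 0.14) and Vwf (0.90 ± 0.34). Vwf lost its call with DESeq2, in 1 fit of all 12 libraries, and at 0.74 to 0.91 without replicate 2 or 3 of either group. Tie1 (−0.52) was not called. Of 4 tested muscle genes (25% called, below the share of all genes) desmin (Des) was higher (0.51 ± 0.037) and Acta1 (−0.27) and Ckm (−0.29) were not called. Rmrp (−0.12) and Rpph1 (−0.06), short RNAs whose level can move with the RNA preparation, were not called.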

How the data were processed

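RNA was measured by RNA-seq in 3T3-L1 adipocytes, 3 libraries each of shDnmt3a, GFP and shScr among 12 in all. Per the labels, the authors depleted ribosomal RNA with Ribo-Zero, made TruSeq libraries, which do not mark strand, and deposited raw counts per gene as 1 table. Their processing notes name TopHat2 2.0.14, SAMtools 0.1.19, Picard 2.2.4, featureCounts 1.4.6 and the build mm9. Every column of values was matched to a sample. The deposited counts of the 6 libraries of each comparison were filtered (filterByExpr, minimum count 10), scaled by TMM and fitted with edgeR 4.0.16 quasi-likelihood tests in R 4.3.3, with Benjamini-Hochberg adjustment over all genes tested and a threshold of 0.05. CPM were scaled over the 12 libraries. The test is 2-sided. Standard errors are the absolute log2 fold change divided by the root of the F statistic. Of 27473 features, 7094 had no count, and where 1 symbol was on several features (789 symbols) the one with the highest mean count was used. Counting error adds most to the error of genes of low level.

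Genes were named by rule: Dnmt3a and Fgf21, the 10 highest and 10 lowest called genes with a mean count of at least 20 and groups that do not overlap, the 8 highest and 8 lowest against both controls on the same terms, the 8 highest and 8 lowest with the hairpins within a log2 of 0.2, and the 3 smallest p-values of each of 34 lists. A few genes that the rule names are not reported here. The members and lists were chosen with earlier results of these data known. Alternatives were RLE scaling, DESeq2 1.42.0, other count filters, 1 fit of all 12 libraries, a replicate block, summed symbols, a threshold of 0.01 and leaving out each library. The fits were tested on simulated data. Overexpression libraries were not used here beyond the common scaling and the fit of 12. Upstream sequences came from RefSeq tables of GRCm38.p6, and hairpin targets were matched to NCBIM37 by sequence.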

Additional observations from a re-analysis of the deposited data

How the results depend on the processing

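Raising the count filter to 1 CPM in 3 libraries lowered the genes higher by a log2 of at least 1 from 353 to 225. Those lower fell from 250 to 165. Many strongly different genes were rare, and fewer genes were tested. Counts of genes stayed within 1.5 times their value in the other 70 recomputations. Of the counts of list members called, 902 stayed within 1.5 times and 50 did not, 27 of which started from 0 or 1. List medians moved by less than the spread between libraries in 380 cases and by more in 62. Of medians beyond 0.1, those of the germline genes (−0.17 to 0.018) and the endothelial markers (0.15 to −0.058) changed sign without shDnmt3a replicate 3. The replicate numbers did not pair the libraries, with correlations of deviations of 0.039, −0.006 and 0.015 for equal numbers. With a replicate block 3672 genes were higher and 3583 lower, 356 and 250 by a log2 of at least 1, and Dnmt3a stood at −1.23, while among the named genes the call of Rmrp alone changed (−0.12). Of the named genes, Rpph1, which was not called, stood at −0.06 and ran from −0.13 to 0.01 when 1 library was left out, with the reversal at GFP replicate 2. Vwf (0.93, adjusted p = 0.132) and Lars2 (1.19, adjusted p = 0.339) were not called with DESeq2, and Lars2 stood at 0.99 (adjusted p = 0.102, edgeR's quasi-likelihood test) without GFP replicate 2. In all, 1867 values of named genes kept their side of the threshold, 10 lost and 6 gained it and 1 reversed. The cause was not tested. The share of calls that were higher ran from 49.4% to 52.6%, and no setting moved the median over all genes beyond −0.0126. Genes under about 1 CPM rest on few reads, which limits their fold changes.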

Other observations

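Clock genes, which keep daily time in most tissues, were higher in 9 of 16 tested cases and lower in 3, by small amounts (median log2 fold change of shDnmt3a against GFP 0.23, 75% called against 48.2% of all genes). The repressor Bhlhe40 was at 196, 187 and 187 CPM in GFP and 252, 244 and 236 CPM in shDnmt3a (0.36 ± 0.036, log2 fold change ± standard error) and the repressor Cry2 at 59.3, 53.6 and 53.3 and 75, 72.6 and 71.8 CPM (0.40 ± 0.045). The groups did not overlap for Bhlhe40 and Cry2. In shScr Bhlhe40 was at 142, 156 and 146 CPM, below GFP. Bhlhe40 is also known as a hypoxia-induced gene. The core activator Arntl was higher (0.40) and its partner Clock lower (−0.14), and these 2 were picked after their values were seen.

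Thermogenic and beige fat genes were higher in 8 of 14 tested cases and lower in 2 (median 0.21, 71.4% called). The potassium channel Kcnk3 was at 64.6, 62.3 and 63.3 CPM in GFP and 86.9, 88.6 and 84.3 CPM in shDnmt3a (0.45 ± 0.039), glycerol kinase (Gyk) at 41.4, 46.6 and 44.4 and 60.7, 62.4 and 62.8 CPM (0.49 ± 0.046), and the adrenergic receptor Adrb3 at 96.3, 93 and 88.7 and 75.4, 74 and 74.7 CPM (−0.31 ± 0.039). No shDnmt3a library overlapped GFP for these 3. Against shScr, 3 of 14 list members were higher in shDnmt3a and 7 lower (median −0.14). The list median for shScr against GFP was 0.22. The defining uncoupling protein Ucp1 was below 0.1 CPM in every library of both groups.

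Lysosome genes went in both directions, 8 of 20 higher and 4 lower (median 0.04, 60% called). The cholesterol carrier Npc2 was at 571, 579 and 574 CPM in GFP and 439, 449 and 445 CPM in shDnmt3a (−0.37 ± 0.031), the membrane protein Lamp1 at 1690, 1720 and 1730 and 1310, 1390 and 1370 CPM (−0.34 ± 0.030) and the galactosidase Gla at 0.50 ± 0.046. In shScr Npc2 and Lamp1 were above GFP, at 681, 665 and 690 and 2550, 2490 and 2480 CPM.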
